A study of Mus musculus with 8 samples.

Results

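The genes described here are 36 genes of glycolysis and of the response to low oxygen, listed by symbol. Of these, 33 had a probe set with 1 gene symbol, among 18782 genes measured on the arrays. Gpi1, Eno1 and Pfkfb1 had none and were not analysed here. The list names genes by role, without a threshold on measured values, but it was drawn up with earlier results of these data known. They were grouped by role into 5 genes of glucose entry and lactate exit, 15 glycolytic enzymes, 2 enzymes that set fructose 2,6-bisphosphate, 5 oxygen sensors and HIF subunits, and 6 other genes induced by low oxygen.

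The arrays profiled lung macrophages of mice with and without the nuclear receptor PPARγ, on a C57BL/6 background. The knockout mice (KO) were CD11c-Cre/Pparg fl/fl, in which Cre recombinase under the CD11c promoter removes a loxP-flanked stretch of Pparg. The control mice (WT) were Pparg fl/fl, so both genotypes carried the flanked gene and the controls lacked the recombinase. The 4 groups were KO at 11 days of age, WT at 11 days, KO at 2 days and WT at 2 days, with 2 arrays each, and the cells on each array came from a pool of 2 mice. At day 11 the sorted cells were alveolar macrophages, CD45+, high in CD11c and autofluorescence and positive for Siglec-F, with high CD11b in KO and low CD11b in WT. At day 2 they were precursors, CD45+, F4/80+ and high in CD11c, taken from a gate of intermediate Siglec-F and CD11b or from a gate of low Siglec-F and high CD11b. The labels do not say which genotype was sorted through which day 2 gate. Gate and deletion cannot be told apart at day 11, where the CD11b gate differed by genotype, and may not be at day 2. Age cannot be told apart from gate and cell stage, because the cells of the 2 ages were sorted differently. In these bulk samples, fewer cells of a type and less RNA per cell cannot be told apart either.

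Glycolysis splits glucose into pyruvate, which is turned into lactate when oxygen is short or when cells are activated. HIF-1α (Hif1a) and HIF-2α (Epas1) are transcription factor subunits that prolyl hydroxylases (Egln1, Egln2, Egln3) mark for breakdown while oxygen is present, so that their target genes, among them glucose carriers and glycolytic enzymes, are induced when it falls. Alveolar macrophages live in an air space rich in oxygen and poor in glucose and are known for relying on lipids and mitochondrial respiration.

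Values are the authors' RMA signals on the log2 scale, so a difference of 1 is a 2-fold change. Each p-value is limma's after Benjamini-Hochberg adjustment over all 18782 genes, and a value under 0.05 was counted as a call. The error given after ± is the SE of a log2 difference. The p-values measure the spread between pools of 2 mice. The median signal over all probe sets was 5.35 and the highest 13.01, and 28 of the 33 genes averaged above that median. Slc2a3, Eno2, Ankrd37, Adm and Higd1a averaged below it. Arrays of 1 group correlated at 0.994 to 0.998 across the 18782 genes.

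Some arrays stood apart or limited the check of the labels. Pparg itself read 11.32 and 11.36 in KO and 11.18 and 11.13 in WT at day 11, and 10.55 and 10.74 in KO against 10.89 and 11.01 in WT at day 2, a difference of -0.31 ± 0.08 (limma adjusted p = 0.0346). The sources used here do not give where its probes lie relative to the deleted stretch, so it checks no label. Fabp4, a PPARγ target, was lower in KO (log2 difference -3.18 ± 0.16 at day 11, -2.91 ± 0.16 at day 2). KO day 2 array 1 stood apart in 14 interferon response genes, with a list median of 9.58 against 5.55 on KO day 2 array 2, and with 5.20 and 4.70 in WT at day 2. The pools also differed in sex-linked signal. Xist, expressed in female cells, was low on KO day 11 array 1 (3.46) and WT day 2 array 2 (3.38), and the Y-linked Eif2s3y was low on KO day 2 array 1 (4.05).

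Between KO and WT, glucose carriers, the lactate exporter Slc16a3, both broadly used hexokinases and the low-oxygen genes Ndrg1 and P4ha1 were higher in KO at both ages, while the oxygen sensor Egln3 was lower. Most enzymes of the later steps of glycolysis were not called. At day 11, 12 of the 33 genes were called, 10 higher and 2 lower in KO, where 18.6% of all genes were called (9.34% higher and 9.29% lower). At day 2, 12 were also called, 11 higher and 1 lower, where 20.1% of all genes were called (8.86% higher and 11.2% lower). The median difference over the 33 genes was 0.21 at day 11 and 0.22 at day 2, beside -0.00 and -0.03 over all genes. This median depended on single KO arrays. At day 11 it was 0.0975 without KO day 11 array 1 and 0.245 without array 2. At day 2 it was 0.112 without KO day 2 array 1 and 0.33 without array 2. Groups of arrays did not overlap, with KO higher, for 17 of the 33 genes at day 11 (27.7% of all genes) and for 20 at day 2 (24% of all genes). With KO lower, they did not overlap for 4 genes at day 11 (28.7% of all genes) and for 5 at day 2 (34.2%).

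The calls at both ages took in 10 genes. Slc2a1, Slc2a3, Slc2a6, Slc16a3, Hk1, Hk2, Pfkm, Ndrg1 and P4ha1 were higher in KO at both, and Egln3 was lower at both. Epas1 (higher) and Aldoc (lower) were called at day 11, and Hif1a and Pkm (both higher) at day 2, with the difference at the other age not called. The other 19 genes were called at neither age. The plot of all 33 differences gives each with its interval.

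**Figure D1:**
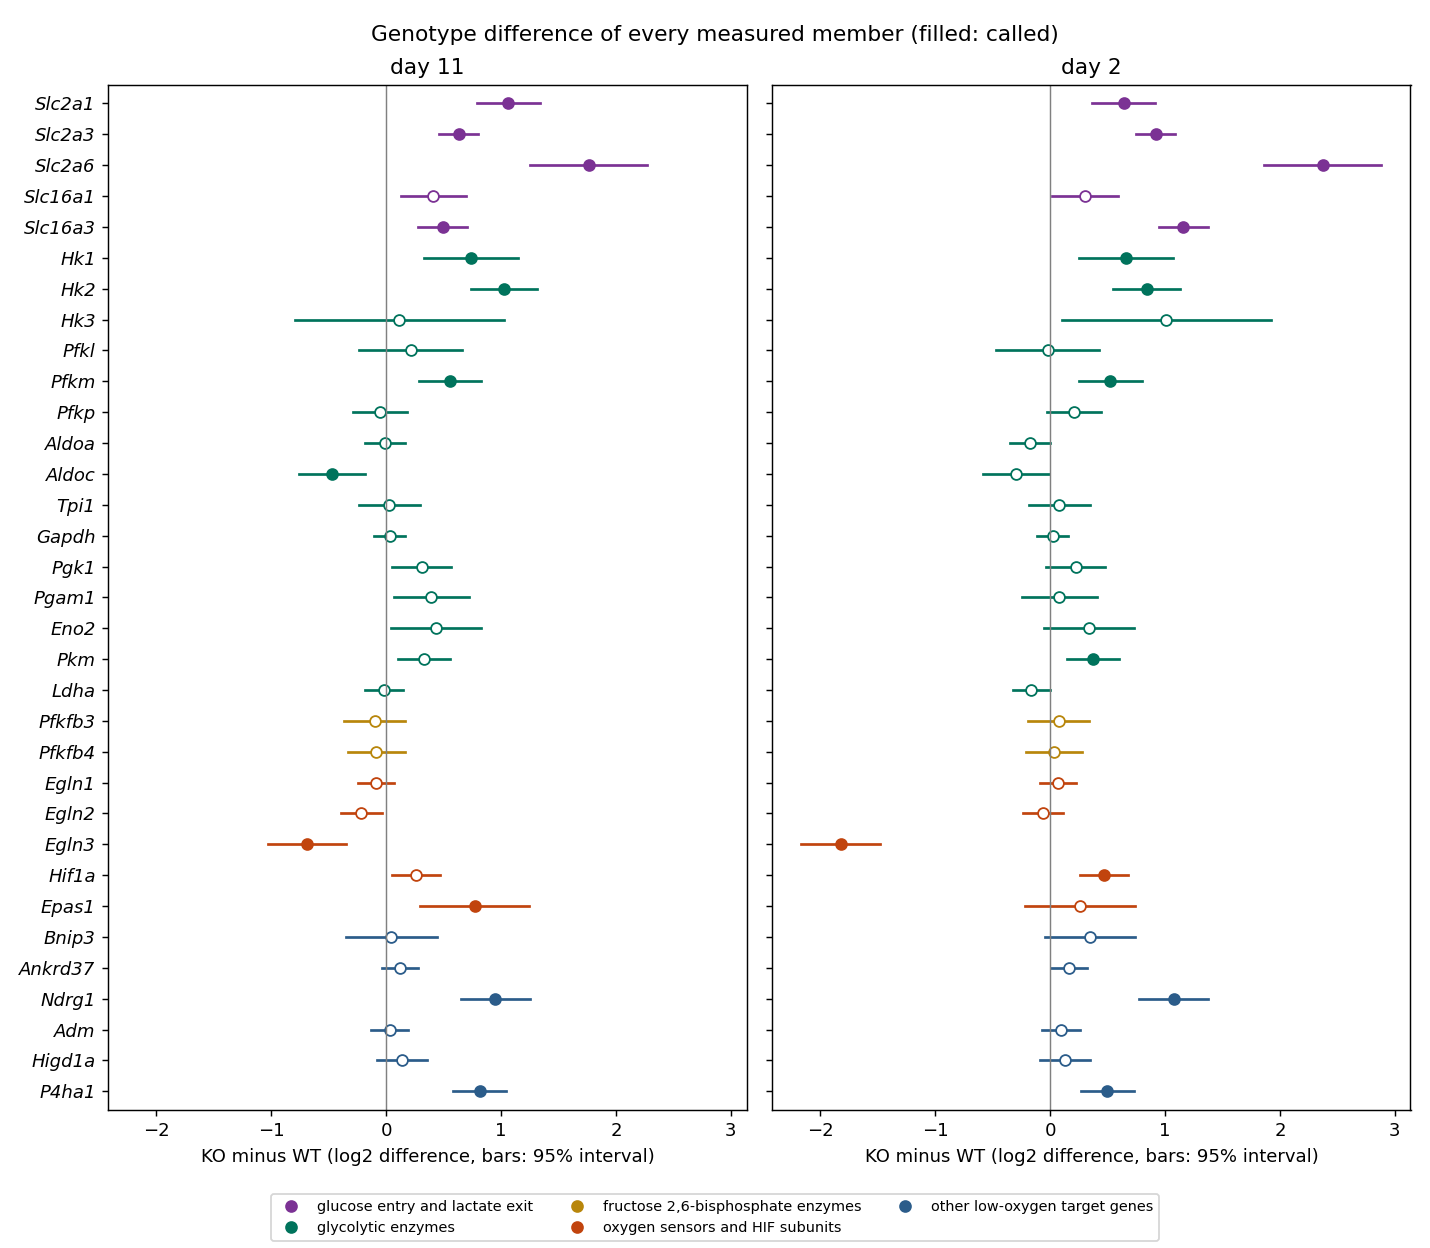
Difference between KO and WT of each of the 33 measured genes (horizontal axis, log2, KO minus WT) at day 11 (left) and day 2 (right), coloured by role, with the 95% interval from the fit of all 8 arrays as a bar; filled points were called. Slc2a6 lies farthest to the right at both ages (1.76 at day 11, 2.37 at day 2) and Egln3 farthest to the left (-0.69 and -1.82).

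Of the 5 carriers, 4 were higher in KO at each age and Slc16a1 was called at neither. Slc2a6 (GLUT6), a glucose transporter family member found on lysosomes, had the largest difference among the 33 genes. It read 7.86 and 8.50 in KO against 6.24 and 6.59 in WT at day 11. The day 2 signals were 9.05 and 8.74 in KO against 6.37 and 6.67 in WT. All KO arrays lay above all WT arrays. The rise was 1.76 ± 0.22 at day 11 (3.39-fold, limma adjusted p = 0.00107) and 2.37 ± 0.22 at day 2 (5.17-fold, adjusted p = 0.000244).

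Slc2a1 (GLUT1), the main glucose carrier of activated macrophages, read 10.96 and 10.99 in KO against 9.82 and 10.01 in WT at day 11. At day 2 it read 11.63 and 11.27 in KO against 10.83 and 10.79 in WT. The groups did not overlap at either age. The rise was 1.06 ± 0.12 at day 11 (2.09-fold, limma adjusted p = 0.000587) and 0.64 ± 0.12 at day 2 (1.56-fold, adjusted p = 0.00691), and the day 2 call was lost without WT day 2 array 2 (adjusted p = 0.0531). Slc2a3 (GLUT3), a high-affinity glucose carrier, was dim. It read 5.19 and 5.30 in KO against 4.61 and 4.62 in WT at day 11, and 5.77 and 5.80 in KO against 4.79 and 4.94 in WT at day 2. Its rises were 0.63 ± 0.07 at day 11 (limma adjusted p = 0.000752) and 0.92 ± 0.07 at day 2 (adjusted p = 0.000124). All its signals but those of KO at day 2 lay below the median of 5.35. On arrays the change of a dim gene can be understated, which was not tested here.

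Slc16a3 (MCT4), which exports lactate, read 9.01 and 8.96 in KO against 8.45 and 8.53 in WT at day 11. Its day 2 arrays read 9.89 and 9.62 in KO against 8.62 and 8.58 in WT. The KO arrays of day 2 were the high ones, and the groups did not overlap at either age. The rise was 0.49 ± 0.09 at day 11 (1.41-fold, limma adjusted p = 0.00762) and 1.16 ± 0.09 at day 2 (2.23-fold, adjusted p = 0.00012). The day 11 call was lost without WT day 11 array 1 (adjusted p = 0.0623). Slc16a1 (MCT1), a carrier of lactate and pyruvate in both directions, differed by 0.41 ± 0.12 at day 11 (adjusted p = 0.055) and by 0.30 ± 0.12 at day 2 (adjusted p = 0.134).

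The promoter sequences of a few of these genes are shown because the HIF complex is known to bind the core letters ACGTG or GCGTG. The windows are the 250 bases before the RefSeq start of each gene (GRCm38.p6), written 5′ to 3′ on the gene's strand, and capitals mark either core on either strand. Slc2a6 (chr2:27027999-27028248, minus strand) is the gene with the largest difference. Slc2a1 (chr4:119108495-119108744, plus strand), Hk2 (chr6:82774455-82774704, minus strand) and Egln3 (chr12:54203875-54204124, minus strand) were chosen after their values were seen, as a carrier and an enzyme that were higher in KO and the sensor that was lower.
Slc2a6: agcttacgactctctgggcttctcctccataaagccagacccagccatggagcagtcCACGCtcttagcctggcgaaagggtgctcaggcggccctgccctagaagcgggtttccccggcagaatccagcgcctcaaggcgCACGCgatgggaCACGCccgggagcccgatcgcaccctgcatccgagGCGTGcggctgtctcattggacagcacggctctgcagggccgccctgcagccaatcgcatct
Slc2a1: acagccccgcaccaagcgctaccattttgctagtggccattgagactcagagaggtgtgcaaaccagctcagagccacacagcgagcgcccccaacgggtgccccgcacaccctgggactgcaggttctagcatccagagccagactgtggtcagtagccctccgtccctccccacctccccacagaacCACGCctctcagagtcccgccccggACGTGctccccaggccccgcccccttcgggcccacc
Hk2: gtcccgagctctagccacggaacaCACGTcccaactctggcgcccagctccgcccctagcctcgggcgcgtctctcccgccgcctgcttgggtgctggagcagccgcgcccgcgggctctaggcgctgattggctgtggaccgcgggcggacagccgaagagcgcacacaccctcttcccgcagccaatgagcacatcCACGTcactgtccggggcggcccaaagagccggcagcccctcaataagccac
Egln3: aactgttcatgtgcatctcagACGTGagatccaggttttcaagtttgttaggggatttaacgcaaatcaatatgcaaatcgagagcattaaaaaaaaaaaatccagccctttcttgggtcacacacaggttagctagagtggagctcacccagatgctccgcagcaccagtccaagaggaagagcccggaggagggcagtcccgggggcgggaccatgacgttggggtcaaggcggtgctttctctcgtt

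The Slc2a6 window held 4 matches, those of Slc2a1 and Hk2 held 2 each and that of Egln3 held 1. ACGTG also lies within CACGTG, the E-box that MYC and other factors bind. A window was found for 30 of the 33 genes. Of these, 28 (93.3%) held ACGTG or GCGTG, beside 41.5% of 27025 genes with a window. ACGTG alone was in 19 of the 30 (63.3%, against 18.5% of all genes) and GCGTG in 20 (66.7%, against 30.9%). Among the genes with a window that were higher in KO at both ages, 7 of 7 held a core, and among those called at neither age 17 of 19 (89.5%) did. The windows were not matched on base composition, and several genes are listed because they are known HIF targets. A match is a description of letters, not of a bound site.

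Of the 15 glycolytic enzymes, 4 were called at day 11 (3 higher, 1 lower) and 4 at day 2 (all higher). That is 26.7% at each age, where 18.6% of all genes were called at day 11 and 20.1% at day 2. Hk2, a hexokinase that catalyses the first step and is induced by low oxygen, read 8.25 and 8.29 in KO against 7.07 and 7.41 in WT at day 11. At day 2 it read 9.05 and 8.86 in KO against 8.22 and 8.02 in WT. KO arrays were above WT arrays at each age, and those of KO at day 11 were close to those of WT at day 2. The rise was 1.02 ± 0.12 at day 11 (2.03-fold, limma adjusted p = 0.000891) and 0.84 ± 0.12 at day 2 (1.79-fold, adjusted p = 0.0023).

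Hk1, the hexokinase of most tissues, was higher in KO by 0.74 ± 0.18 at day 11 (limma adjusted p = 0.0224) and by 0.66 ± 0.18 at day 2 (adjusted p = 0.0346). Pfkm, the muscle-type subunit of phosphofructokinase, was higher by 0.56 ± 0.12 (adjusted p = 0.0135) and by 0.52 ± 0.12 (adjusted p = 0.0167). The calls of both depended on single arrays. The Hk1 call at day 11 was lost without KO day 11 array 1 (adjusted p = 0.125) or WT day 11 array 2 (0.124), and at day 2 without KO day 2 array 1 (0.152), WT day 2 array 1 (0.177) or WT day 2 array 2 (0.0888), and with the Y-linked Eif2s3y signal as a covariate, an alternative chosen after the data were seen (0.0955). The Pfkm call at day 11 was lost without KO day 11 array 1 (adjusted p = 0.0735), WT day 11 array 1 (0.0534) or WT day 11 array 2 (0.088), and at day 2 without KO day 2 array 2 (0.0758) or WT day 2 array 1 (0.111). The other phosphofructokinase subunits, Pfkl and Pfkp, differed by 0.21 and -0.06 at day 11 and by -0.02 and 0.21 at day 2 and were not called.

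Aldoc, an aldolase, was lower in KO at day 11 by 0.47 ± 0.12 (limma adjusted p = 0.0332), with 9.25 and 9.53 in KO against 9.76 and 9.96 in WT. The call was lost without KO day 11 array 1 (adjusted p = 0.172), WT day 11 array 1 (0.0597) or array 2 (0.185), or either WT day 2 array (0.0508). Pkm, the pyruvate kinase of macrophages, was higher in KO at day 2 by 0.38 ± 0.10 (adjusted p = 0.0313), and this call was lost in 7 of 17 alternative settings, with adjusted p up to 0.184 without WT day 2 array 2. The others with 1 array left out were 0.139 without KO day 2 array 1, 0.0536 without WT day 2 array 1 and 0.0513 without either WT day 11 array. With only the day 2 arrays in the fit it was 0.0866, and with the Eif2s3y covariate 0.0668. At day 11 Pkm differed by 0.33 on the probe set used (adjusted p = 0.0568) and by 0.38 on its second probe set, which was called.

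Of the enzymes from aldolase to lactate, Aldoc at day 11 and Pkm at day 2 were the only calls. Gapdh read 12.65 and 12.71 in KO against 12.66 and 12.64 in WT at day 11, a difference of 0.03 with a 95% interval of -0.11 to 0.17. Ldha, which makes lactate from pyruvate, differed by -0.02 at day 11 (interval -0.18 to 0.14) and by -0.17 at day 2 (interval -0.33 to -0.00), and Aldoa by -0.01 at day 11 (interval -0.19 to 0.17). None of these 3 was called. Their intervals leave out a rise as large as that of Hk2, while the Gapdh signals lie close to the highest value of the arrays. The other enzymes of this stretch had positive differences at day 11 without a call. Eno2 differed by 0.43 there (interval 0.04 to 0.82), Pgam1 by 0.39 (interval 0.06 to 0.72), Pgk1 by 0.31 (interval 0.05 to 0.57) and Tpi1 by 0.03 (interval -0.24 to 0.29), beside a median size of 0.11 over all genes. At day 2 these 4 enzymes differed by 0.08 to 0.33. Some were called in alternative settings, at day 11 Pgam1 (limma adjusted p = 0.00504) and Pgk1 (0.0286) without either KO day 2 array and Eno2 without KO day 11 array 2 (0.00198), and at day 2 Pgam1 (0.0282) and Pgk1 (0.0296) without KO day 2 array 2 and Eno2 without either KO day 11 array (0.0165). Pkm at day 11 was called in 8 alternative settings. The 17 probe sets of Gapdh differed by -0.03 to 0.04 at day 11 and none was called. Gapdh, Pgk1, Pgam1, Tpi1, Pkm and Bnip3 have near-identical copies in the mouse genome, so their probe sets may also read those copies.

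Hk3, a hexokinase of myeloid cells, showed the array that stands apart. It read 8.72 and 7.26 in KO against 7.18 and 6.78 in WT at day 2, a difference of 1.01 ± 0.39 (limma adjusted p = 0.12). KO day 2 array 1 alone was high, and it is also the array of high interferon response genes. Without KO day 2 array 2, which left array 1 alone in its group, Hk3 was called (adjusted p = 0.000428). At day 11 it differed by 0.11 ± 0.39 (adjusted p = 0.907).

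**Figure D2:**
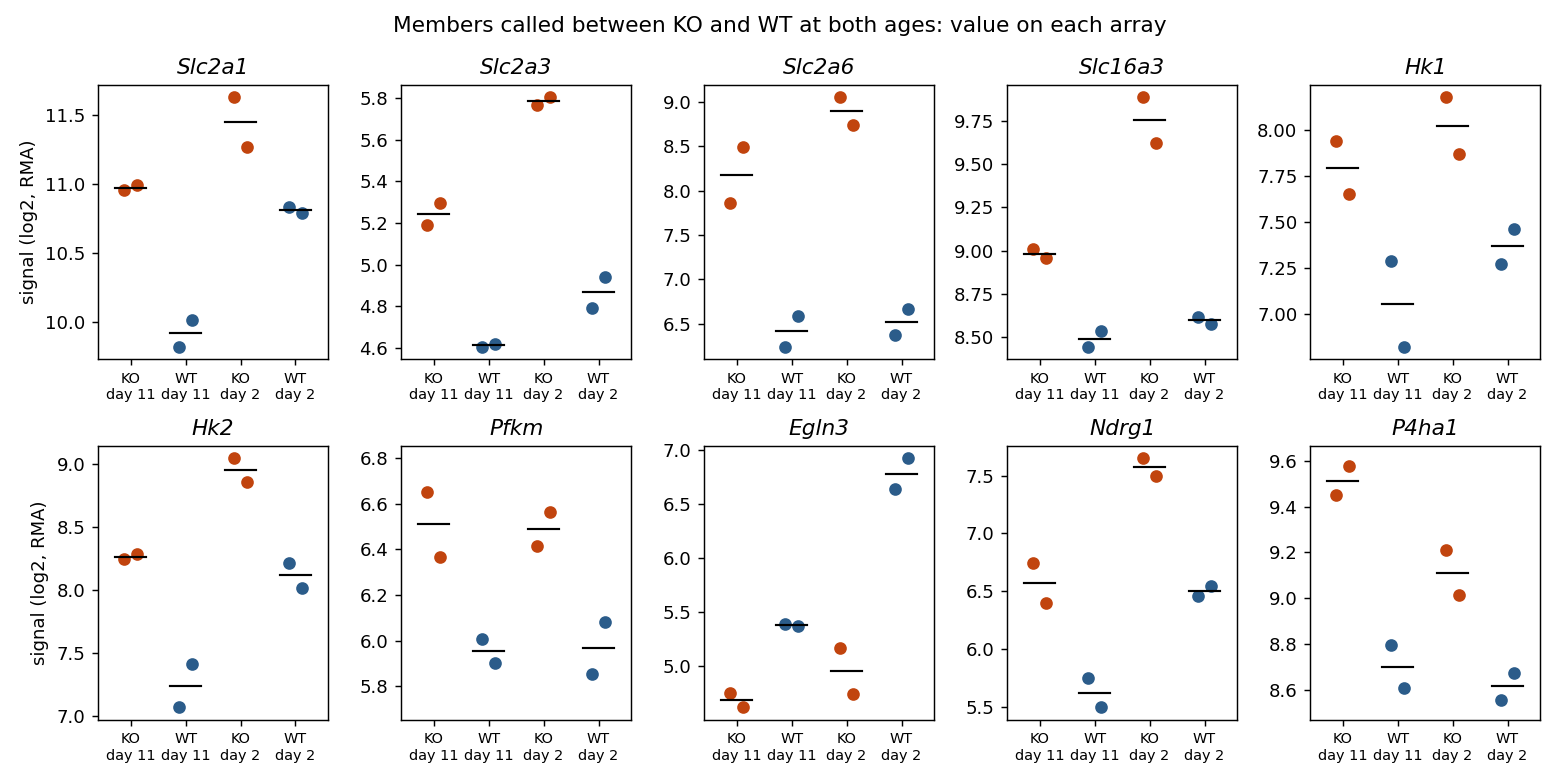
Log2 RMA signal (vertical axis, own scale in each panel) of the 10 genes called between KO and WT at both ages, with KO and WT of day 11 and then KO and WT of day 2 from left to right. Points are single arrays and lines are group means; in 9 panels the KO points lie above the WT points of the same age, and for Egln3 they lie under them.

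The enzymes Pfkfb3 and Pfkfb4, which raise fructose 2,6-bisphosphate and so speed phosphofructokinase, were not called between genotypes. Pfkfb3 differed by -0.10 at day 11 (95% interval -0.36 to 0.16) and by 0.07 at day 2 (interval -0.19 to 0.34). Pfkfb4 differed by -0.09 (interval -0.33 to 0.16) and by 0.03 (interval -0.21 to 0.28).

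Among the oxygen sensors, only Egln3 was called between genotypes. Egln3 (PHD3), the HIF-induced prolyl hydroxylase, read 4.76 and 4.62 in KO against 5.39 and 5.37 in WT at day 11. At day 2 it read 5.17 and 4.74 in KO against 6.64 and 6.92 in WT. WT at day 2 was the high group, and all KO arrays lay below the median signal of the arrays. The fall was 0.69 at day 11 (SE 0.15, 1.61-fold lower, limma adjusted p = 0.0138) and 1.82 at day 2 (SE 0.15, 3.54-fold lower, adjusted p = 0.000124). The day 11 call was lost without KO day 11 array 2 (adjusted p = 0.0818), WT day 11 array 1 (0.0817) or array 2 (0.0684). Egln1 (PHD2), the main oxygen sensor of most cells, differed by -0.09 at day 11 (95% interval -0.25 to 0.06) and by 0.07 at day 2 (interval -0.09 to 0.22), and Egln2 (PHD1) by -0.22 (adjusted p = 0.0943) and by -0.07 (adjusted p = 0.622).

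The HIF α subunits were called at 1 age each. Hif1a read 10.91 and 10.67 in KO against 10.34 and 10.30 in WT at day 2, a rise of 0.47 ± 0.09 (limma adjusted p = 0.00837). That call was lost without WT day 2 array 2 (adjusted p = 0.0613). At day 11 it differed by 0.26 ± 0.09 (adjusted p = 0.0944). Epas1 read 8.65 and 8.26 in KO against 7.60 and 7.77 in WT at day 11, a rise of 0.77 ± 0.21 (adjusted p = 0.0357). At day 2 it differed by 0.26 ± 0.21 (adjusted p = 0.452). The Epas1 call was lost without KO day 11 array 1 (adjusted p = 0.183), WT day 11 array 1 (0.186) or array 2 (0.0961), or either WT day 2 array (0.0519). The test of whether the genotype difference changed with age gave adjusted p = 0.466 for Hif1a and 0.434 for Epas1. HIF α subunits are controlled mainly as proteins, which arrays do not measure.

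Of the 6 other low-oxygen genes, Ndrg1 and P4ha1 were higher in KO at both ages. Ndrg1, a stress-response gene and common marker of low oxygen, read 6.74 and 6.40 in KO against 5.75 and 5.49 in WT at day 11. The day 2 arrays read 7.65 and 7.50 in KO against 6.46 and 6.55 in WT. KO and WT arrays did not overlap at either age. The rise was 0.95 ± 0.13 at day 11 (1.93-fold, limma adjusted p = 0.00167) and 1.07 ± 0.13 at day 2 (2.10-fold, adjusted p = 0.000872).

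P4ha1, a subunit of the hydroxylase that modifies collagen, read 9.45 and 9.58 in KO against 8.79 and 8.61 in WT at day 11. Its rise was 0.81 ± 0.10 at day 11 (limma adjusted p = 0.000923) and 0.50 ± 0.10 at day 2 (adjusted p = 0.00976), and the day 2 call was lost without WT day 2 array 1 (adjusted p = 0.0719). The KO arrays of day 11 were its highest. Bnip3, a mitophagy receptor, Ankrd37, Adm, which encodes the peptide adrenomedullin, and Higd1a, a mitochondrial protein, were not called at either age. Their differences were 0.03 to 0.14 at day 11 and 0.10 to 0.34 at day 2. Ankrd37, Adm and Higd1a lay near or below the median signal on all arrays.

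Between the day 2 precursors and the day 11 macrophages, most called members were lower at day 11, in both genotypes. These differences are called changes with age here, but age, gate and cell stage cannot be told apart in them. In KO, 8 of the 33 genes were called between day 11 and day 2, 1 higher and 7 lower, where 15.5% of all genes were called (8.81% higher, 6.71% lower). In WT, 5 were called, all lower at day 11, where 5.3% of all genes were called (2.81% higher, 2.49% lower). The median change of the 33 genes was -0.12 in KO and -0.11 in WT, beside 0.01 and -0.01 over all genes. Slc2a1, Hk2, Hif1a and Ndrg1 were lower at day 11 in both genotypes. Other lists moved with age in KO, where 8 of 11 neutrophil markers, 5 of 8 monocyte markers, 6 of 10 dendritic cell markers and 13 of 17 cell cycle genes were lower at day 11, with 0, 1, 1 and 0 higher. In WT, 1, 2, 0 and 1 of these were lower, with 2, 2, 2 and 0 higher. Their part in the changes with age was not tested.

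Ndrg1 was 2.01-fold lower at day 11 in KO (log2 SE 0.13, limma adjusted p = 0.00241) and fell by 0.88 on the log2 scale in WT (SE 0.13, adjusted p = 0.0101). Hk2 fell by 0.69 in KO (SE 0.12, adjusted p = 0.00935) and by 0.88 in WT (SE 0.12, adjusted p = 0.00861). Slc2a1 fell by 0.48 in KO (SE 0.12, adjusted p = 0.0328) and by 0.90 in WT (SE 0.12, adjusted p = 0.00646). These falls left KO at day 11 above WT at day 11 for each of the 3 genes. Hif1a fell by 0.62 in KO (SE 0.09, adjusted p = 0.00382) and by 0.41 in WT (SE 0.09, adjusted p = 0.0415). In KO, and without a call in WT, Slc16a3 fell by 0.77 (adjusted p = 0.00177), Slc2a3 by 0.54 (adjusted p = 0.00294) and Egln2 by 0.34 (adjusted p = 0.0204), while P4ha1 rose by 0.40 (adjusted p = 0.0312). In WT, Egln3 fell by 1.40 (SE 0.15, 2.64-fold lower, adjusted p = 0.00238). It was the gene with the largest change with age, and in KO, where it was low at both ages, it differed by -0.27 ± 0.15 (adjusted p = 0.297).

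Many of the age calls depended on single arrays. Egln3 in WT and Slc2a3, Slc16a3, Hif1a and Ndrg1 in KO were called whichever array was left out. In WT, Slc2a1 was lost without WT day 11 array 1 (adjusted p = 0.0644) or WT day 2 array 1 (0.0662) or array 2 (0.0527), Hk2 without WT day 11 array 1 (0.0518) or WT day 2 array 1 (0.0785), and Ndrg1 without WT day 11 array 2 (0.0722) or WT day 2 array 1 (0.0699) or array 2 (0.0854). Hif1a in WT was lost without any 1 of the 4 WT arrays (adjusted p = 0.0999 to 0.216) or without either KO day 11 array (0.0612), and also with the replicate number as a block (0.0577) or after cyclic loess (0.0508). In KO, Slc2a1 was lost without KO day 11 array 1 (adjusted p = 0.121) or array 2 (0.112), KO day 2 array 1 (0.12) or either WT day 2 array (0.0612). Hk2 in KO was lost without KO day 2 array 1 (0.0504). Egln2 was lost without KO day 11 array 1 (0.0864) or array 2 (0.077) or KO day 2 array 1 (0.0883), and P4ha1 without KO day 11 array 1 (0.0581) or array 2 (0.157), KO day 2 array 2 (0.116) or either WT day 2 array (0.0509). Other settings also ended calls in KO. With the Eif2s3y covariate, Slc2a1 (-0.29 in place of -0.48, adjusted p = 0.164), Hk2 (0.0613), Egln2 (0.115) and P4ha1 (0.0558) were lost. With only the KO arrays in the fit, Slc2a1 (0.0965) and P4ha1 (0.0739) were lost, and P4ha1 was lost after cyclic loess (0.0543). Without KO day 2 array 2, 15 members were called in KO, 14 of them lower at day 11, where 15.9% of all genes were called.

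**Figure D3:**
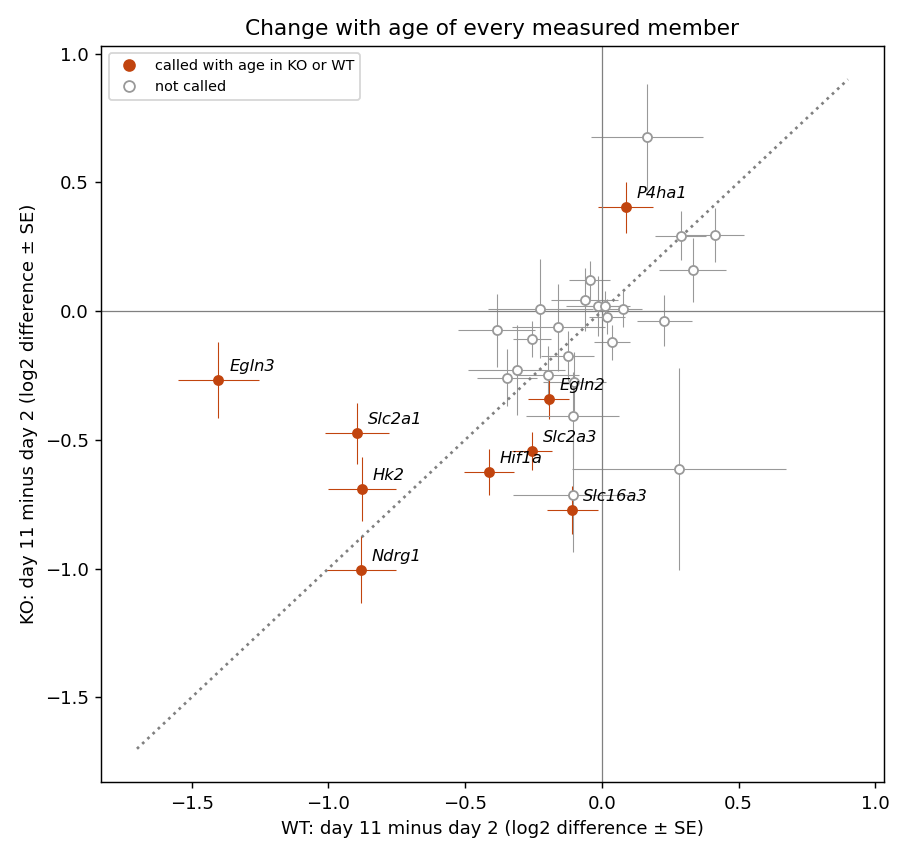
Change from day 2 to day 11 (log2, day 11 minus day 2, bars are SE) of the 33 genes in KO (vertical axis) against WT (horizontal axis); the dotted line marks equal change, and filled, named points were called with age in KO or WT. Ndrg1 lies near the line (-1.0 in KO, -0.88 in WT), Egln3 far to the left (-0.27 in KO, -1.40 in WT) and Slc16a3 below it (-0.77 in KO, -0.11 in WT).

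The genotype difference itself changed with age for 2 of the 33 genes, 1 in each direction, where 3.27% of all genes were called in this test (1.29% with a higher and 1.99% with a lower KO minus WT difference at day 11). The Egln3 difference was smaller in size at day 11 than at day 2 (change 1.13 ± 0.21, limma adjusted p = 0.0305), and so was the rise of Slc16a3 (change -0.66 ± 0.13, adjusted p = 0.0391). Slc2a1 had the larger rise at day 11, but the change of 0.42 ± 0.17 was not called (adjusted p = 0.259). Both calls were lost when 1 array was left out, as set out in the closing section.

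Other genes of the pathway were called in both directions. The counts of these related lists stand beside 18.6% of all genes called at day 11 and 20.1% at day 2. Of 16 other genes of glycolysis and fructose 2,6-bisphosphate, 5 were higher and 0 lower in KO at day 11, and 3 were higher and 2 lower at day 2. Ldhb, the lactate dehydrogenase subunit of oxidative tissues, read 8.63 and 7.87 in KO against 6.23 and 6.45 in WT at day 11, a rise of 1.91 ± 0.21 (limma adjusted p = 0.000559). Its rise at day 2 was 1.15 ± 0.21 (adjusted p = 0.00653). Pfkfb2, a further fructose 2,6-bisphosphate enzyme, was higher by 0.65 ± 0.10 at day 11 and by 0.47 ± 0.10 at day 2, and Eno3, the muscle enolase, by 1.56 ± 0.11 at day 2. Minpp1, a phosphatase, was higher by 0.48 ± 0.13 at day 11. Of 12 other glucose and lactate carriers, 2 were higher at both ages, namely Slc37a2, a sugar phosphate exchanger (1.21 ± 0.18 at day 11, 0.81 ± 0.18 at day 2), and Slc2a9, a urate carrier of the glucose transporter family (0.85 ± 0.10 and 0.70 ± 0.10). Without WT day 2 array 2, the day 2 calls of Ldhb (adjusted p = 0.0547), Pfkfb2 (0.102) and Slc37a2 (0.102) were lost, and that of Pfkfb2 also without KO day 2 array 2 (0.0681). The Minpp1 call was lost without KO day 11 array 1 (0.195), WT day 11 array 2 (0.213) or either WT day 2 array (0.0644).

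Of 17 genes of pyruvate entry into mitochondria and of gluconeogenesis, 1 was higher and 5 were lower in KO at day 11, and 1 higher and 4 lower at day 2. Pdk1, a HIF-induced kinase that shuts pyruvate dehydrogenase, read 7.32 and 7.15 in KO against 8.25 and 8.18 in WT at day 11, and fell by 0.98 there (SE 0.08, limma adjusted p = 0.000138) and by 1.12 at day 2 (SE 0.08). Its direction was opposite to that of Slc2a1 and Hk2. Fbp1, which runs the phosphofructokinase step backwards, fell by 2.40 at day 11 (SE 0.46, adjusted p = 0.00862), Pdp2, a pyruvate dehydrogenase phosphatase, by 0.50 at day 11, and Pdhb, a subunit of that enzyme, by 0.39 at day 2. Pdp2 was also lower at day 2 (-0.35 ± 0.07), and Pdhb at day 11 (-0.41 ± 0.09). Pdk4, a kinase known as a PPAR target, was higher at day 2 by 0.62 ± 0.18. Of 15 pentose phosphate and glycogen genes, 4 were higher and 6 lower at day 11, and 2 higher and 5 lower at day 2. H6pd, the glucose 6-phosphate dehydrogenase of the endoplasmic reticulum, was higher at both ages (0.87 ± 0.09 and 0.66 ± 0.09). Gys1, a glycogen synthase, was lower at both (-0.63 ± 0.09 and -0.65 ± 0.09). So was Rpia, of the pentose phosphate pathway (-0.58 ± 0.08 at day 11, -0.95 ± 0.08 at day 2). Pgm1 was lower at day 11 (-0.62 ± 0.12). The Fbp1 call was lost without WT day 11 array 2 (adjusted p = 0.0636) and with a trended, robust prior (0.0661). The day 2 call of Pdhb was lost without KO day 2 array 2 or WT day 2 array 1 (differences -0.32 and -0.29). It was also lost after cyclic loess (limma adjusted p = 0.0597) and with only the day 2 arrays in the fit (adjusted p = 0.0559). Pdk4 was not called in 9 of 17 alternative settings, with adjusted p up to 0.256 without WT day 2 array 2, 0.18 without KO day 2 array 2, 0.0668 without either KO day 11 array and 0.0792 without either WT day 11 array, and with 0.126 with only the day 2 arrays in the fit, 0.0632 with the replicate number as a block and 0.0519 with all probe sets of 1 symbol. The Pgm1 call was lost without KO day 11 array 2 (0.0647) or WT day 11 array 1 (0.0609) or array 2 (0.0605).

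Of 14 genes of the oxygen-sensing machinery, Cited2 alone was called at either age. Cited2, a HIF-induced protein that competes with HIF-1α for the coactivators p300 and CBP, read 10.67 and 10.92 in KO against 9.77 and 9.68 in WT at day 11. Its rise was 1.07 ± 0.10 at day 11 (limma adjusted p = 0.000313) and 1.31 ± 0.10 at day 2 (adjusted p = 0.00012). Of 33 further low-oxygen targets, 5 were higher and 4 lower in KO at day 11, and 7 higher and 4 lower at day 2. Vegfa, the vascular growth factor, read 8.44 and 7.92 in KO against 7.17 and 7.45 in WT at day 11 and was higher by 0.87 ± 0.20 (adjusted p = 0.0174). At day 2 the rise of Vegfa was larger, 1.54 ± 0.20 (limma adjusted p = 0.00108). Angptl4, a lipase inhibitor that is also a PPAR target, was lower at both ages (-1.65 ± 0.13 at day 11, -1.87 ± 0.13 at day 2). Tfrc, the transferrin receptor, was lower at both ages (-0.92 ± 0.13 at day 11, -0.66 ± 0.13 at day 2). At day 2 Arg1, an arginase, was higher by 2.75 ± 0.56 and the growth factor Pdgfb by 1.62 ± 0.15. Pdgfb was also higher at day 11, by 0.62 ± 0.15. Of 18 upstream regulators, 1 was higher and 1 lower at day 11, and 1 higher and 3 lower at day 2. Myc was higher at day 11 (0.37 ± 0.10) and Rptor, of the mTORC1 complex, at day 2 (0.47 ± 0.06). Prkaa1, a catalytic subunit of AMP kinase, was lower at both ages (-0.27 ± 0.07 and -0.32 ± 0.07), and the PPARγ coactivator Ppargc1b was lower at day 2 (-0.38 ± 0.08).

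Several of these calls also rested on single arrays. The day 11 call of Vegfa was lost without KO day 11 array 1 or WT day 11 array 1 (differences 0.61 and 0.73). The day 2 call of Arg1 was lost without WT day 2 array 1 or array 2 (differences 2.78 and 2.73). It was also lost with the trended, robust prior (limma adjusted p = 0.0823). Myc was lost without any 1 of the 4 arrays of day 11 (0.065 to 0.171). Ppargc1b was lost without KO day 2 array 1 (0.0568) or WT day 2 array 1 (0.0525) or array 2 (0.0764). Prkaa1 was lost at day 11 without KO day 11 array 2 (0.181), WT day 11 array 1 (0.165) or array 2 (0.104), or either WT day 2 array (0.0594), or with only the day 11 arrays in the fit (0.0546), and at day 2 without KO day 2 array 2 (0.0858) or WT day 2 array 1 (0.0658) or array 2 (0.102). Cited2, Pdk1, Angptl4, Slc2a9, H6pd and Gys1 were called at both ages in all 17 alternative settings. So were Tfrc and Pdp2 at day 11 and Pdgfb, Rptor, Rpia and Eno3 at day 2. The calls of Vegfa, Tfrc and Pdp2 at day 2 and of Pdgfb, Rpia and Pdhb at day 11 were not followed through these settings.

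**Figure D4:**
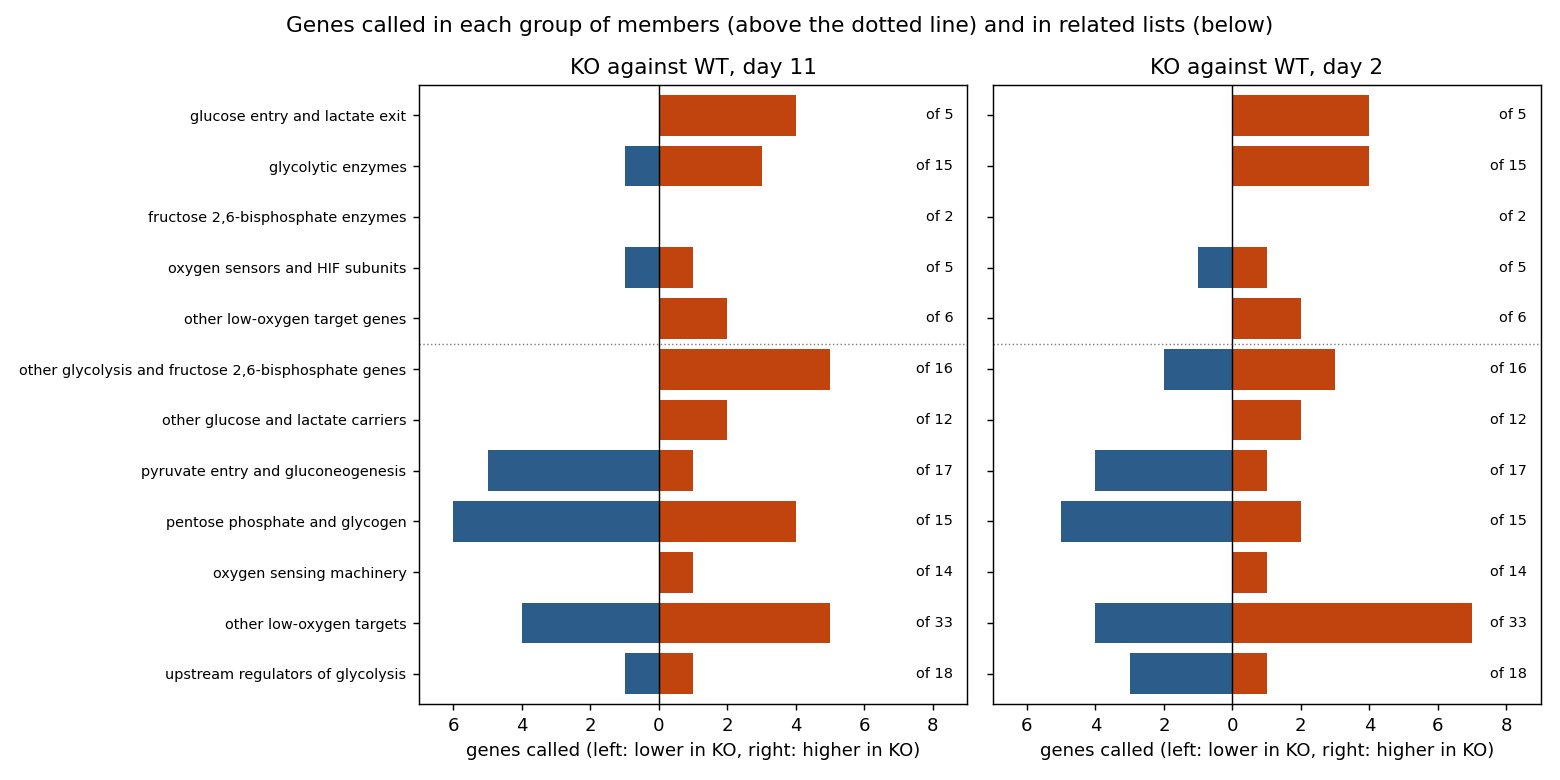
Number of genes called between KO and WT (bars to the right, higher in KO; bars to the left, lower) in the 5 groups of members above the dotted line and in related lists below it, at day 11 (left) and day 2 (right), with the number measured at the right edge. Of 5 carriers 4 were higher at each age, while the bars of pyruvate entry and of pentose phosphate and glycogen genes reach farther to the left than to the right. Of all genes, 18.6% were called at day 11 and 20.1% at day 2.

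Marker genes of other cell types moved with the groups. Of all genes, 18.6% were called between KO and WT at day 11 and 20.1% at day 2. At day 2, 9 of 11 neutrophil markers were higher in KO and 1 was lower, and the list median was 6.70 and 6.35 in KO against 5.26 and 5.11 in WT. Camp and Ltf lay below the median signal on all arrays. At day 11 the neutrophil median was lower in KO (5.07 and 5.04 against 5.33 and 5.18 in WT), with 2 of 11 markers higher and 2 lower. Of 8 monocyte markers, 4 were higher and 0 lower in KO at day 11 (list medians 7.83 and 7.91 in KO, 6.12 and 6.01 in WT), and 6 were higher and 1 lower at day 2 (9.32 and 8.92 in KO, 7.55 and 7.30 in WT). Of 10 dendritic cell markers, 2 were higher at day 11 (6.05 and 6.31 in KO, 5.64 and 5.63 in WT) and 8 at day 2 (7.69 and 7.48 in KO, 4.97 and 4.81 in WT). Of 9 alveolar macrophage markers, 6 were lower and 1 higher in KO at day 11, and 7 were lower and 1 higher at day 2. That list holds the PPAR targets Fabp4 and Cidec, so loss of the receptor and fewer such cells cannot be told apart in it. The median signals of the T and NK cell, B cell and erythroid lists were below 5.35 on every array, though Cd79b of the B cell list lay above it. In the B cell list, 2 of 5 markers were lower in KO at day 11 and 0 were called at day 2. Endothelial markers (7 measured) had 1 higher at day 11 and 3 at day 2, with 0 lower. Alveolar epithelial markers (8 measured) had 2 lower at day 11 and 1 at day 2, with 0 higher. None of 6 fibroblast markers was called.

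Cell state lists moved as well. All 17 cell cycle genes were lower in KO at day 11 and 16 of 17 at day 2, with list medians of 8.45 and 8.16 in KO against 9.71 and 9.58 in WT at day 11. Of 12 genes of dissociation stress, 6 were higher and 1 lower in KO at day 11, and 8 were higher at day 2. The part of these cell types and states in the differences of the carriers, enzymes and low-oxygen genes was not tested. Without KO day 2 array 1, the array of high interferon response genes, 10 of the 33 genes were called at day 2, 9 higher and 1 lower, where 16.1% of all genes were called. With the Eif2s3y signal as a covariate, chosen after the data were seen, 17 were called at day 11, where 19% of all genes were called, and 11 at day 2, where 17.1% were.

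**Figure D5:**
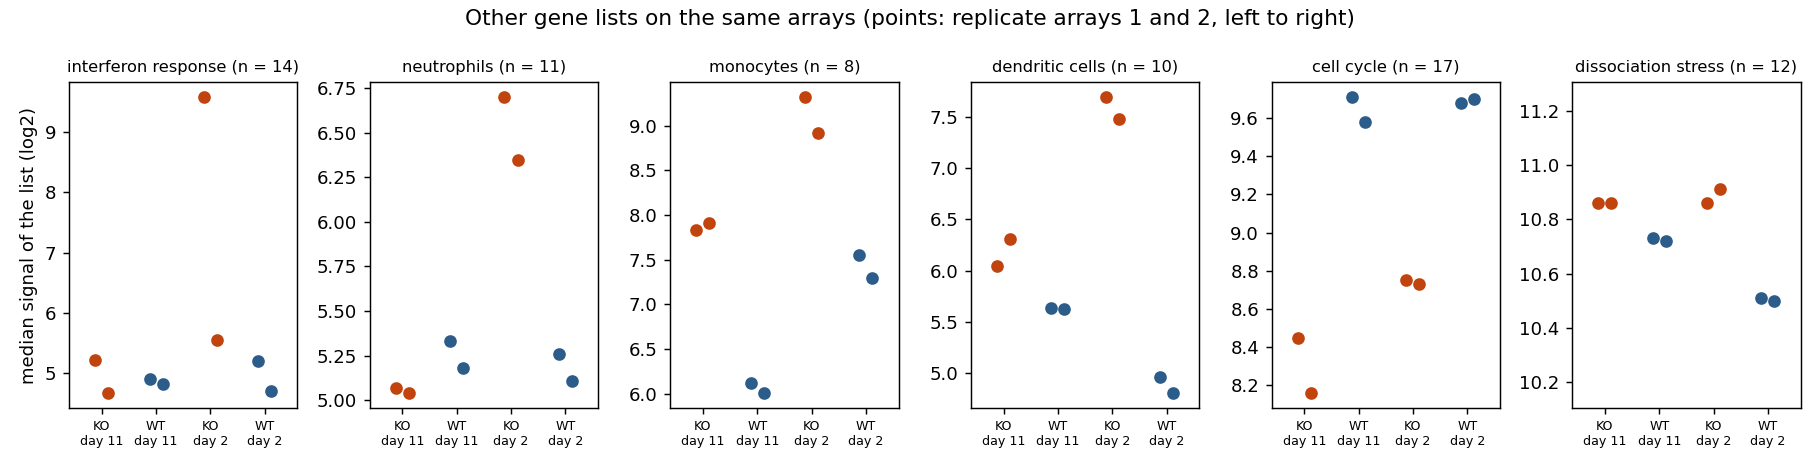
Median log2 signal (vertical axis, own scale in each panel) of 6 gene lists on each array, with KO and WT of day 11 and then KO and WT of day 2 from left to right; n is the number of genes measured. The interferon response list is high on KO day 2 array 1 alone (9.58), the neutrophil list in KO at day 2 (6.70 and 6.35), and the cell cycle list lies lower in KO than in WT at both ages.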

How the data were processed

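RNA of sorted lung macrophages was hybridised to 8 Affymetrix arrays in 4 groups of 2, each array holding cells pooled from 2 mice. The deposited values are on the log2 scale; per the submitters' processing notes they were made with RMA and R 2.15.2. That method brings arrays to a common distribution, so a shift of all genes cannot be seen, and the small number of arrays limits the precision. Of 28874 probe sets, 21159 had 1 gene symbol in the platform annotation, 1881 several and 5834 none. Only the first kind was used, with the probe set of highest mean where a gene had several, which left 18782 genes.

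Differences were tested in R 4.3.3 with limma 3.58.1, which fitted the mean of every group to the 8 arrays together (4 residual and 3.77 prior degrees of freedom) and Benjamini-Hochberg adjustment over all genes of a contrast. The contrasts were KO against WT at each age, day 11 against day 2 in each genotype, and the interaction. A run of the fit on simulated data used independent noise and far fewer changed genes than were called between genotypes here. That run does not vouch for the calls. Members were described array by array where called with at least a 2-fold difference in any contrast, as were a few others. Of each related list, up to 3 called genes of largest difference per age were named, with the other age given where it was also called. The members and lists were chosen with earlier results of these data known. Promoter windows came from RefSeq (GRCm38.p6). Alternatives were another prior, a filter on dim genes, cyclic loess, another probe set per gene, all probe sets, array weights, the replicate number as a block, fewer groups, each array left out, and the Eif2s3y signal as a covariate.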

Additional observations from a re-analysis of the deposited data

Results flagged for a closer look

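The genotype difference changed with age for Egln3 and Slc16a3, by the interaction term of the fit. For Egln3, KO minus WT was -0.69 at day 11 and -1.82 at day 2, a change of 1.13 ± 0.21 on the log2 scale (limma adjusted p = 0.0305). Egln3 read 4.76 and 4.62 in KO against 5.39 and 5.37 in WT at day 11, close to or below the median signal of 5.35. The call was lost without KO day 11 array 1 (adjusted p = 0.0893) or array 2 (0.0672), WT day 11 array 1 (0.111) or array 2 (0.115), or WT day 2 array 1 (0.0643) or array 2 (0.115), and it was kept without either KO day 2 array.

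For Slc16a3, KO minus WT was 0.49 at day 11 and 1.16 at day 2, a change of -0.66 ± 0.13 (limma adjusted p = 0.0391). It was lost without KO day 11 array 1 (adjusted p = 0.0851) or array 2 (0.109), WT day 11 array 1 (0.106) or array 2 (0.143), KO day 2 array 1 (0.0539), or WT day 2 array 1 (0.125) or array 2 (0.142), and with the Eif2s3y signal as a covariate (0.0654). The neutrophil list median was also higher in KO at day 2 (6.70 and 6.35 in KO, 5.26 and 5.11 in WT) and not at day 11 (5.07 and 5.04 in KO, 5.33 and 5.18 in WT), and in the same interaction 7 of 11 neutrophil markers were called with a lower difference at day 11 (list median -1.17), as were 7 of 10 dendritic cell markers (-1.29) and 3 of 8 monocyte markers (-0.66), with none called the other way. The part of these cell types in the Slc16a3 and Egln3 results was not tested.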

How the results depend on the processing

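Of the 39 calls of members over the 5 contrasts, 17 were kept under every alternative tried, among them Slc2a3, Slc2a6, Hk2 and Ndrg1 between KO and WT at both ages. No alternative turned a called direction round, but this was largely fixed in advance. Several alternatives leave the difference itself as it was. Groups that do not overlap also keep their direction when 1 array is left out. Slc2a3 lies below the median signal, so the filter on dim genes left it out and its calls were tried in 16 alternatives. Of 126 member results that were not called, 30 were called under at least 1 alternative, and 47 changed sign under an alternative without being called there. Of 35 results named from the related lists as the largest per age, 21 were called under every alternative. Leaving out 1 array moved the number of members called to between 7 and 17 at day 11 and between 8 and 16 at day 2 between genotypes (12 each with all arrays), to between 5 and 15 with age in KO (8 with all arrays), to between 1 and 7 with age in WT (5), and to between 0 and 3 for the interaction (2). The number of all genes called moved in these settings as well, as given below, so the shifts are not particular to the members. Where this left 1 array in a group, that array was assumed to vary like the other groups. With the Eif2s3y covariate, chosen after the data were seen, 4 members were called with age in KO (7.53% of all genes) and 1 in the interaction (1.99%). With the replicate block, 12 members were called at day 11 (18.2% of all genes) and 12 at day 2 (19.7%) between genotypes. In the same setting 8 were called with age in KO (15%), 4 with age in WT (5.19%) and 2 in the interaction (2.97%). Hif1a was the call lost in WT (limma adjusted p = 0.0577). The deviations of same-numbered arrays from their group means correlated at -0.075 to 0.25 between groups. With 2 arrays per group this cannot show whether replicate numbers pair the arrays. Over all genes, the 996 calls with age in WT became 233 to 346 without 1 WT array, 1496 with array weights and 1581 with only the WT arrays in the fit, and the 2915 in KO became 1414 with the covariate and 1466 with only the KO arrays. The 615 interaction calls became 197 to 414 without 1 WT or KO day 11 array, 942 without KO day 2 array 2 and 374 with the covariate. For KO against WT, 3500 calls at day 11 became 2059 without WT day 11 array 1, and 3774 at day 2 became 2223 without WT day 2 array 2. The cause of these shifts was not tested beyond the smaller number of arrays.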

Other observations

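Set side by side with no test, KO macrophages of day 11 and WT precursors of day 2 had like mean signals for Ndrg1, Hk2 and Slc2a1. These genes were higher in KO at both ages and lower at day 11 in both genotypes. Ndrg1 averaged 6.57 in KO at day 11 and 6.50 in WT at day 2, Hk2 8.27 and 8.12, and Slc2a1 10.97 and 10.81. Other genes stood apart in the same pairing. Slc2a6 averaged 8.18 in KO at day 11 and 6.52 in WT at day 2, P4ha1 9.52 and 8.61, Epas1 8.46 and 7.52, and Egln3 4.69 and 6.78.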
